A study of Homo sapiens with 6 samples.

Results

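PI3K, AKT, mTOR and growth receptor genes were followed after MED12 knockdown in 22Rv1 prostate cancer cells. The 40 genes were listed by name, as genes of this pathway, with earlier results of these data known. They comprise 27 genes whose products pass the growth signal on (activators) and 13 whose products restrain it (brakes). A normalised expression value was given for 37 of the 40, among 17901 genes in all. With replicate-numbered libraries compared in pairs, 13 of the 37 rose (35.1%, against 17.1% of all genes), 6 fell (16.2%, against 16.2% of all genes) and 18 did not pass the test. Among genes with a mean of at least 5 CPM, which all 37 had, 21.9% rose and 21.6% fell. With an added correction for G and C content and transcript length, 10 members rose and 7 fell, against 2517 and 3375 of 17881 genes. Without pairing, EIF4EBP1 fell and no other member passed. Among the members, the receptors ERBB2 and ERBB3 had the largest increases and the translation repressor EIF4EBP1 had the largest decrease.

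The libraries were made from poly(A) RNA of 22Rv1, a line of human prostate cancer cells that resists the antiandrogen enzalutamide. Both groups were grown in RPMI-1640 medium with fetal bovine serum and transfected with 25 pmol of an siRNA pool, 24 hours after seeding. The siCtrl cells (n = 3) received a pool without a target and the siMED12 cells (n = 3) a pool against MED12, a subunit of the kinase module of Mediator. The medium was replaced 6 hours later and the cells were taken after 3 days, so that serum growth factors were present throughout in both groups. All values are from 1 cell line and 1 siRNA pool against MED12.

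Levels are given as CPM, the reads of a gene relative to the scaled library size. MED12, the targeted gene, was read at 67.8, 77.7 and 72.6 CPM in the siCtrl libraries and at 23.9, 14.97 and 30.1 CPM in the siMED12 libraries. No siMED12 library came near the lowest siCtrl library, and MED12 fell with a log2 fold change of -1.66 ± 0.23 SE (adjusted p = 0.0314) when groups were compared by treatment alone. Leaving out 1 library at a time gave adjusted p-values of up to 0.186. Libraries held 16136699 to 17012788 counts assigned to genes. All 10 prostate luminal markers, among them KLK3 and KRT8, were measured, at a summed 2953 to 3097 CPM in siCtrl and 2659 to 2781 CPM in siMED12. Of 6 fibroblast markers 3 passed the filter on low counts, with sums of 27.01 to 40.4 CPM in siCtrl and 26.8 to 42.9 CPM in siMED12. No leukocyte or endothelial marker did, and their sums stayed at or below 0.476 CPM in every library. Whether the lower luminal sum in siMED12 bears on the members was not tested.

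In this pathway, growth factors and insulin activate receptor tyrosine kinases at the cell surface. The receptors, directly or through IRS adaptors, recruit phosphoinositide 3-kinase (PI3K), whose lipid product brings PDK1 and AKT to the membrane. AKT then inhibits FOXO transcription factors and the TSC complex, which releases RHEB to activate mTOR complex 1, and that complex promotes protein synthesis through S6 kinases and the 4E-BP repressors. Feedback from mTOR complex 1 and from FOXO factors acts on receptors and IRS adaptors. In prostate cancer the pathway is often active and is known to interact with androgen receptor signalling.

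The promoters of 4 members are printed because these genes, a receptor that rose, the insulin and IGF1 receptors and the adaptor IRS2, moved in different directions next to one another in the pathway. Each line gives the 250 bases before a RefSeq transcript start (GRCh38.p14), 5′ to 3′ on the gene's strand. Capitals mark GC boxes, the letters GGGCGG or CCGCCC, which are known as binding letters of SP1 family factors. The windows are chr17:39687844-39688093 on the plus strand for ERBB2, chr19:7294415-7294664 on the minus strand for INSR, chr15:98648289-98648538 on the plus strand for IGF1R and chr13:109786584-109786833 on the minus strand for IRS2. The ERBB2 window ends inside the gene as Gencode places it, because its RefSeq start lies further on. Exons of ERBB2 overlap exons of MIEN1 and PGAP3 on the opposite strand, by 715 bases. Whether the window falls in that overlap was not examined, so its letters may in part be those of another gene. Its GC box count therefore may not describe a promoter that ERBB2 uses in these cells. Only 1 window was available for ERBB2.
ERBB2: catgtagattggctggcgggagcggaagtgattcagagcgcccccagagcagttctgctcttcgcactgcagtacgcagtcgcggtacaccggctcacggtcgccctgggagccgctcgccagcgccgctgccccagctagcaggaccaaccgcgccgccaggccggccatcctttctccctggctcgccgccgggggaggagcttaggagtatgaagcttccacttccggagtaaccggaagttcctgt
INSR: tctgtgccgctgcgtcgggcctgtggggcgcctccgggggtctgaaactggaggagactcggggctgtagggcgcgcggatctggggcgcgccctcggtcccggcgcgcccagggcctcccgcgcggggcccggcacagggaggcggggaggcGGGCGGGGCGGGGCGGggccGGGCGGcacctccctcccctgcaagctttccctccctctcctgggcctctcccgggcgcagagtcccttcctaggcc
IGF1R: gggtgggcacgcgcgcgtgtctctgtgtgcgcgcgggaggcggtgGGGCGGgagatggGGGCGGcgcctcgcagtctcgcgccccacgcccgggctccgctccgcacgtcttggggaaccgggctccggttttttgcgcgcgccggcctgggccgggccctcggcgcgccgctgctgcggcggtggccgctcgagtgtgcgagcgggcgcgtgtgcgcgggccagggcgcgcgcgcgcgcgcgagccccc
IRS2: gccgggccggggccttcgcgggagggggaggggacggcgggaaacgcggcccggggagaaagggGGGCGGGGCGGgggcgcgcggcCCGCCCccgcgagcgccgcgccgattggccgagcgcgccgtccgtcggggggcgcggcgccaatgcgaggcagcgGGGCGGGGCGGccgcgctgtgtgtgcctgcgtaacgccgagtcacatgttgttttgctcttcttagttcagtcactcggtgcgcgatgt
The ERBB2 window held 0 GC boxes, INSR 4, IGF1R 2 and IRS2 5, with overlapping matches counted, at G and C contents of 65.6%, 78.4%, 81.2% and 76.4%. RefSeq windows were matched for 34 of the 40 members. A GC box was found in at least 1 window of 26 of these 34 genes (76.5%), against 46.2% of all 27305 genes with a window. Members had more windows per gene, and counted by window the shares were 55% of 60 and 42.6% of 35116. The androgen receptor half-site letters AGAACA or TGTTCT were found in 5 of the 34 (14.7%, AKT2, PIK3CD, PIK3R1, PIK3R3 and RPS6KA3), against 14.8% of all genes. Both motifs were searched on both strands. The median G and C content was 63.2% over the 60 member windows and 58% over all 35116 windows.

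Gene positions below are from Gencode 44 (GRCh38). Each gene was tested for a difference between siMED12 and siCtrl with edgeR's quasi-likelihood test across all 17901 genes. Fitted by treatment alone, 27 genes were called higher (0.151%) and 74 lower (0.413%) at an adjusted p under 0.05, 0.564% in either direction. Replicate numbers were shared by libraries that deviated alike from their group means, and with the number as a block 3058 genes were called higher (17.1%) and 2908 lower (16.2%), 33.3% in either direction. Libraries of the same number are called a pair. Below, "rose" and "fell" refer to the fit with the block unless the fit by treatment alone is named, and log2 fold changes, standard errors (SE) and p-values follow the same rule.

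By treatment alone edgeR called 0 of the 37 members higher and 1 lower, with 3 higher and 2 lower at an unadjusted p under 0.05, and a DESeq2 Wald test called 2 higher and 1 lower. The block called 13 higher (35.1%) and 6 lower (16.2%). Among genes with a mean of at least 5 CPM, which all 37 members had, the block called 21.9% higher and 21.6% lower. The siMED12 and siCtrl libraries did not overlap for 3 members that were higher and 3 that were lower, where 11.2% and 10.9% of all genes had such separated groups. In all 3 pairs 21 members were higher and 7 lower, against 30.6% and 27% of all genes. The median log2 fold change, fitted by treatment alone, was 0.11 over the members and 0.02 over all genes. It was 0.13 over 25 activators and 0.04 over 12 brakes. With the block, 8 activators rose and 4 fell, and 5 brakes rose and 2 fell, so that calls in both directions occurred on both sides. With the block and a correction for G and C content and transcript length the median over the members was 0.02, with 10 members called higher and 7 lower, and over the 17881 genes of that fit the median was -0.01, with 2517 called higher and 3375 lower.

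**Figure D1:**
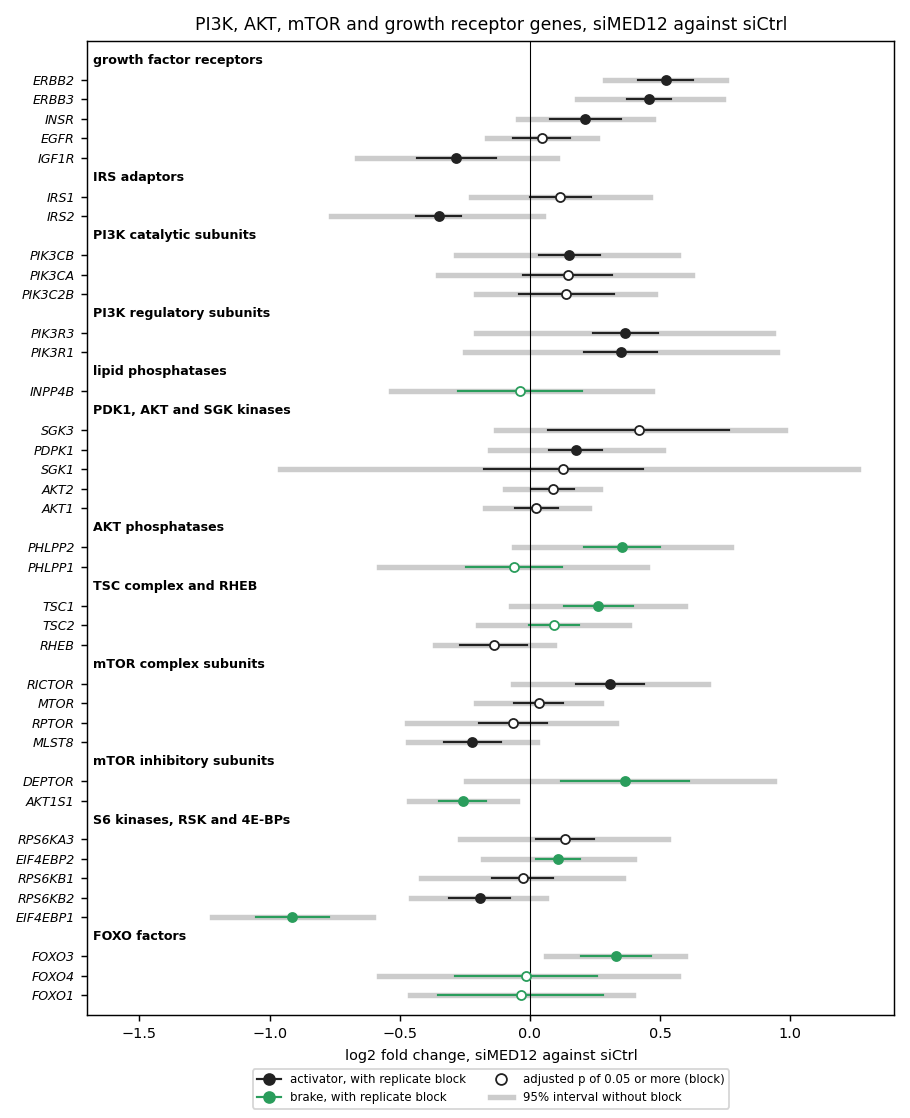
Log2 fold change of the 37 members (horizontal axis) by role (vertical axis), siMED12 against siCtrl, n = 3 each. Points and thin lines give the estimate and 95% interval with the replicate block (black, activators, and green, brakes, open where the adjusted p was 0.05 or more), and grey bars the 95% interval by treatment alone. EIF4EBP1 at -0.91 lies farthest left and ERBB2 at 0.52 farthest right.

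Among the growth factor receptors, ERBB2 and ERBB3 rose, INSR rose, IGF1R fell and EGFR did not pass the test. ERBB2 encodes HER2, a receptor without a known ligand of its own that signals as the partner of other ERBB receptors. ERBB2 (chr17:39687914-39730426, plus strand) was read at 107, 88.1 and 103 CPM in the siCtrl libraries and at 136, 142 and 149 CPM in the siMED12 libraries. Every siMED12 library was above every siCtrl library, and ERBB2 rose with a log2 fold change of 0.52 ± 0.05 SE (adjusted p = 2.7e-10). By treatment alone its adjusted p was 0.0666. In bulk RNA a change in each cell and a change in the share of cells that express a gene cannot be told apart. ERBB3 encodes HER3, which binds neuregulins and carries docking sites for the PI3K regulatory subunit. ERBB3 (chr12:56076799-56103505, plus strand) was read at 225, 238 and 263 CPM in the siCtrl libraries and at 288, 326 and 386 CPM in the siMED12 libraries. The groups again did not overlap, and ERBB3 rose with a log2 fold change of 0.46 ± 0.04 SE (adjusted p = 2.3e-11), with an adjusted p of 0.131 by treatment alone. EGFR, the receptor of epidermal growth factor, was at a mean ± SD (n = 3) of 83.3 ± 2.80 CPM in siCtrl and 86.1 ± 5.95 CPM in siMED12, a log2 fold change of 0.04 with a 95% interval of -0.07 to 0.16. The ratio of ERBB3 to EGFR within a library does not depend on how libraries are scaled. It was 2.78, 2.75 and 3.18 in siCtrl and 3.53, 3.88 and 4.16 in siMED12, and the ratio of ERBB2 to EGFR was 1.33, 1.02 and 1.24 in siCtrl and 1.67, 1.69 and 1.61 in siMED12.

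INSR and IGF1R encode the insulin receptor and the related IGF1 receptor, which share adaptors and can form hybrid receptors. INSR (chr19:7112255-7294414, minus strand) was read at 47.9, 41.5 and 43.9 CPM in the siCtrl libraries and at 52.1, 46.7 and 55.9 CPM in the siMED12 libraries. The groups overlapped, each siMED12 library was above its siCtrl partner, and INSR rose with a log2 fold change of 0.21 ± 0.07 SE (adjusted p = 0.0115). This call was lost with the correction for base composition and length (adjusted p = 0.102) and without replicate 3 (adjusted p = 0.208). IGF1R (chr15:98648539-98964530, plus strand) was read at 56.2, 45.2 and 41.7 CPM in the siCtrl libraries and at 45.1, 31.6 and 41.1 CPM in the siMED12 libraries. It was lower in all 3 pairs, by 1.37% in pair 3 and by 19.7% and 30.1% in pairs 1 and 2, and fell with a log2 fold change of -0.28 ± 0.07 SE (adjusted p = 0.00285). The call was lost without replicate 2 (adjusted p = 0.0537). The ratio of INSR to IGF1R was 0.852, 0.917 and 1.05 in siCtrl and 1.15, 1.48 and 1.36 in siMED12. All 3 siMED12 libraries thus held more INSR than IGF1R counts, which in siCtrl was so only in replicate 3. Counts are not divided by length, and INSR has 10831 exon bases against 13941 for IGF1R, so the crossing does not order their levels.

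The IRS adaptors, which couple these receptors to PI3K, also differed. IRS2 (chr13:109752695-109786583, minus strand) was read at 261, 268 and 181 CPM in the siCtrl libraries and at 198, 207 and 149 CPM in the siMED12 libraries. The groups overlapped because siCtrl replicate 3 was low, but every siMED12 library was below its partner and IRS2 fell with a log2 fold change of -0.35 ± 0.04 SE (adjusted p = 1.8e-08). IRS1 was at 64.7 ± 9.47 CPM in siCtrl and 70.2 ± 10.6 CPM in siMED12 and did not pass the test (log2 fold change 0.12, adjusted p = 0.115). Within libraries the ratio of IRS2 to IRS1 was 3.94, 3.66 and 3.31 in siCtrl and 2.74, 2.61 and 2.54 in siMED12, without overlap. IRS2 thus stayed the more counted of the pair in every library.

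**Figure D2:**
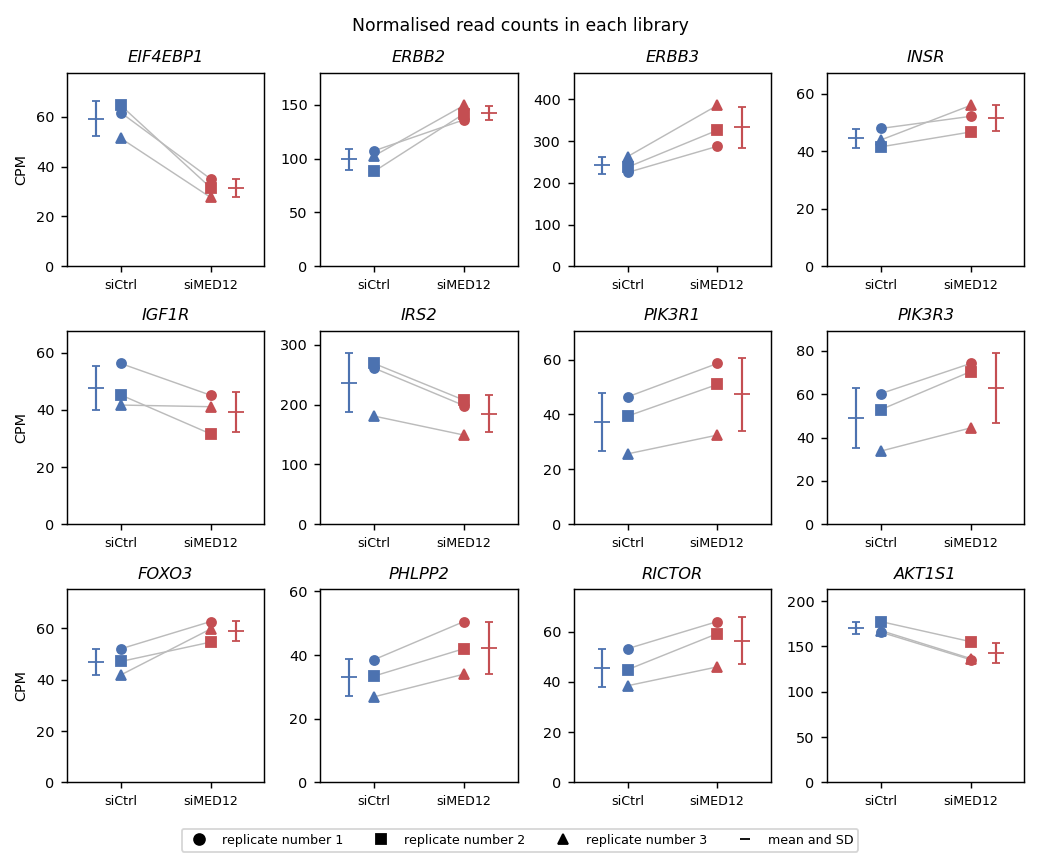
Normalised read counts (CPM, vertical axes from 0) of 12 members in each library, siCtrl in blue and siMED12 in red. Marker shapes give the replicate number, lines join libraries of the same number, and bars give mean and SD (n = 3). EIF4EBP1, ERBB2, ERBB3, FOXO3 and AKT1S1 show separated groups, while in the other 7 panels the groups overlap and each pair moves the same way.

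The PI3K regulatory subunits PIK3R1 and PIK3R3, which hold the catalytic subunits and dock them to receptors and IRS proteins, both rose. PIK3R1 (chr5:68215740-68301821, plus strand) was read at 46.4, 39.4 and 25.7 CPM in the siCtrl libraries and at 58.6, 50.9 and 32.5 CPM in the siMED12 libraries. The siCtrl values spread 1.81-fold, more than the difference between the groups, while the increase within pairs was 26.2%, 29.2% and 26.6%. PIK3R1 rose with a log2 fold change of 0.35 ± 0.07 SE (adjusted p = 1.0e-04), and by treatment alone its adjusted p was 0.594. PIK3R3 (chr1:46040140-46133036, minus strand) was read at 60.3, 52.9 and 33.8 CPM in the siCtrl libraries and at 74.1, 70.4 and 44.4 CPM in the siMED12 libraries. It showed the same spread and increased by 23.01%, 33.1% and 31.6% within pairs, and rose with a log2 fold change of 0.37 ± 0.06 SE (adjusted p = 1.0e-05). Of its 7397 exon bases, 1292 are shared with another gene on the same strand, so that its level is uncertain. PIK3CB, a catalytic subunit, rose from 69.03 ± 15.7 CPM to 76.2 ± 11.995 CPM (adjusted p = 0.0392), a call lost with the correction for base composition and length (adjusted p = 0.614) and without replicate 1 or 3. The other catalytic subunits, PIK3CA at 25.1 ± 6.54 CPM in siCtrl and 27.6 ± 4.98 CPM in siMED12 and the class II enzyme PIK3C2B at 21.5 ± 2.90 CPM in siCtrl and 23.7 ± 2.25 CPM in siMED12, did not pass. The ratios of PIK3R1 and of PIK3R3 to PIK3CA were higher in siMED12 in all 3 pairs, and for both the groups overlapped.

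The 3 members without a normalised value had few counts. PIK3CD, the catalytic subunit of leukocytes, had 10, 1 and 8 counts in siCtrl and 3, 9 and 4 in siMED12. INPP5D, the leukocyte lipid phosphatase SHIP1, had 4, 1 and 0 counts and then 5, 0 and 0. PIK3R2, a regulatory subunit, had 2, 3 and 11 counts and then 3, 3 and 8. Of its 5163 exon bases, 3942 are shared with another gene on the same strand, ENSG00000268173, which had 1 count in all libraries together. Reads that fall in both genes may not have been assigned, so these counts do not measure the level of PIK3R2. The remaining lipid phosphatase INPP4B, which removes a phosphate from a PI3K lipid product, was at 13.3 ± 2.48 CPM in siCtrl and 13.02 ± 2.80 CPM in siMED12 (adjusted p = 0.847).

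Of the kinases next in the pathway only PDPK1 passed the test. PDPK1 encodes PDK1, which phosphorylates AKT and SGK kinases, and rose from 114 ± 14.97 CPM to 129 ± 21.5 CPM (log2 fold change 0.18 ± 0.05 SE, adjusted p = 0.00553). Without replicate 2 its adjusted p was 0.262. AKT1 was at 306 ± 6.76 CPM in siCtrl and 312 ± 23.4 CPM in siMED12, with a 95% interval of the log2 fold change of -0.06 to 0.11, and AKT2 at 227 ± 8.40 CPM in siCtrl and 241 ± 5.97 CPM in siMED12 (adjusted p = 0.106). The related kinases SGK1 and SGK3 were low. SGK1 was read at 3.63, 9.42 and 9.51 CPM in the siCtrl libraries and at 3.45, 10.9 and 10.6 CPM in the siMED12 libraries, so that replicate number 1 was low in both groups. SGK3 was at 4.82 ± 0.686 CPM in siCtrl and 6.46 ± 1.43 CPM in siMED12 (adjusted p = 0.0565), and 2503 of its 5691 exon bases are shared with another gene on the same strand. Of the phosphatases that switch AKT off, PHLPP2 (chr16:71637835-71724701, minus strand) was read at 38.6, 33.4 and 26.9 CPM in the siCtrl libraries and at 50.5, 41.98 and 33.99 CPM in the siMED12 libraries. The groups overlapped, each pair differed by 25.7% to 31.0%, and PHLPP2 rose with a log2 fold change of 0.35 ± 0.07 SE (adjusted p = 1.5e-04). Its homologue PHLPP1, at 22.1 ± 5.54 CPM in siCtrl and 21.2 ± 4.51 CPM in siMED12, did not pass.

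In the TSC complex, the brake upstream of mTOR complex 1, TSC1 rose and TSC2 did not pass. TSC1 (chr9:132891348-132946874, minus strand), which stabilises the complex, was read at 52.5, 39.2 and 47.8 CPM in the siCtrl libraries and at 57.7, 47.7 and 61.97 CPM in the siMED12 libraries. The groups overlapped, and TSC1 rose with a log2 fold change of 0.26 ± 0.07 SE (adjusted p = 0.00157). TSC2, which holds the activity against RHEB, was at 122 ± 15.2 CPM in siCtrl and 129 ± 15.7 CPM in siMED12 (adjusted p = 0.137). RHEB, the GTPase that activates mTOR complex 1, was at 56.02 ± 1.31 CPM in siCtrl and 50.9 ± 3.80 CPM in siMED12. The RHEB groups did not overlap, yet the adjusted p was 0.0904 with the block.

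Among the mTOR subunits, the kinase itself did not pass, at 138 ± 12.01 CPM in siCtrl and 141 ± 11.7 CPM in siMED12. RICTOR (chr5:38937920-39074402, minus strand), which defines mTOR complex 2, the complex that phosphorylates AKT, was read at 53.2, 44.8 and 38.5 CPM in the siCtrl libraries and at 63.97, 59.2 and 45.9 CPM in the siMED12 libraries. Pairs differed by 19.4% to 31.9% and RICTOR rose with a log2 fold change of 0.31 ± 0.06 SE (adjusted p = 2.1e-04). RPTOR, which defines complex 1, was at 55.6 ± 11.5 CPM in siCtrl and 52.9 ± 7.79 CPM in siMED12 (adjusted p = 0.479). The ratio of RICTOR to RPTOR was 0.832, 0.743 and 0.905 in siCtrl and 1.06, 1.11 and 1.02 in siMED12, without overlap. RICTOR counts thus exceeded RPTOR counts only in siMED12 libraries. Counts are not divided by length, and RICTOR has 13457 exon bases against 10302 for RPTOR, so the crossing does not order their levels. MLST8 (chr16:2204248-2209453, plus strand), a subunit of both complexes, was read at 95.2, 101 and 85.8 CPM in the siCtrl libraries and at 87.7, 81.6 and 72.8 CPM in the siMED12 libraries. The groups overlapped and MLST8 fell with a log2 fold change of -0.22 ± 0.05 SE (adjusted p = 0.00123).

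The inhibitory subunits moved in opposite directions. AKT1S1 (chr19:49869033-49878459, minus strand) encodes PRAS40, a brake on complex 1 that AKT relieves, and was read at 166, 177 and 167 CPM in the siCtrl libraries and at 135, 155 and 137 CPM in the siMED12 libraries. All siMED12 libraries were below all siCtrl libraries, and AKT1S1 fell with a log2 fold change of -0.26 ± 0.05 SE (adjusted p = 1.6e-05), with an adjusted p of 0.223 by treatment alone. DEPTOR, an inhibitor of both complexes, was read at 9.94, 16.003 and 8.66 CPM in the siCtrl libraries and at 12.9, 17.8 and 13.2 CPM in the siMED12 libraries. The groups overlapped and DEPTOR rose with a log2 fold change of 0.36 ± 0.12 SE (adjusted p = 0.0169), a call lost without replicate 1 or 3 (adjusted p up to 0.180).

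Downstream of mTOR complex 1, EIF4EBP1 had the largest change of any member. It encodes 4E-BP1, which holds the cap-binding factor eIF4E away from mRNA until mTOR phosphorylates it. EIF4EBP1 was read at 61.7, 64.6 and 51.4 CPM in the siCtrl libraries and at 35.1, 31.6 and 27.7 CPM in the siMED12 libraries. The highest siMED12 library was well below the lowest siCtrl library, and within pairs the decrease was 43.1%, 51.1% and 46.2%. It fell with a log2 fold change of -0.91 ± 0.14 SE (adjusted p = 0.041) by treatment alone, and with a log2 fold change of -0.91 ± 0.07 SE (adjusted p = 1.1e-13) with the block. The call by treatment alone was lost with scaling by library size only (adjusted p = 0.0558) and in 5 of 6 fits that left out 1 library, where the adjusted p reached 0.230, while the log2 fold change stayed between -1.02 and -0.83. With the block it was called in all 6 alternatives. Its homologue EIF4EBP2 was at 199 ± 22.3 CPM in siCtrl and 215 ± 27.95 CPM in siMED12, and rose with an adjusted p of 0.0457 that was lost in 4 of 6 alternatives. The ratio of EIF4EBP1 to EIF4EBP2 was 0.302, 0.296 and 0.294 in siCtrl and 0.154, 0.135 and 0.151 in siMED12. EIF4EBP1 and EIF4EBP2 are both brakes, and their ratio varied little within either group.

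The S6 kinases, which phosphorylate ribosomal protein S6, did not rise. RPS6KB2 (chr11:67428460-67435401, plus strand) was read at 72.3, 83.3 and 91.98 CPM in the siCtrl libraries and at 68.3, 76.4 and 71.3 CPM in the siMED12 libraries. It was lower in each pair, by 22.5% in pair 3 and less in the others, and fell with a log2 fold change of -0.19 ± 0.06 SE (adjusted p = 0.00837), which was lost without replicate 3 (adjusted p = 0.297). RPS6KB1, the main S6 kinase, was at 69.8 ± 13.01 CPM in siCtrl and 68.3 ± 11.1 CPM in siMED12 (adjusted p = 0.760). With the block and the correction for base composition and length it was called lower (log2 fold change -0.146, adjusted p = 0.0354). RPS6KA3 encodes RSK2, a kinase of the parallel ERK branch that PDK1 also activates, and was at 73.5 ± 14.8 CPM in siCtrl and 80.6 ± 13.8 CPM in siMED12 (adjusted p = 0.0548).

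Of the FOXO factors, which AKT keeps out of the nucleus, FOXO3 rose. FOXO3 (chr6:108559835-108684774, plus strand) was read at 52.1, 47.1 and 41.9 CPM in the siCtrl libraries and at 62.7, 54.7 and 59.8 CPM in the siMED12 libraries. The groups did not overlap, and FOXO3 rose with a log2 fold change of 0.33 ± 0.07 SE (adjusted p = 1.1e-04), with an adjusted p of 0.223 by treatment alone. FOXO1, at 7.15 ± 0.438 CPM in siCtrl and 6.98 ± 0.820 CPM in siMED12, and FOXO4, at 9.67 ± 1.91 CPM in siCtrl and 9.63 ± 2.48 CPM in siMED12, were counted less and did not pass. Of the 5957 exon bases of FOXO1, 1352 are shared with another gene on the same strand, which makes its level uncertain. The ratio of FOXO3 to FOXO1 was 7.54, 6.16 and 6.08 in siCtrl and 7.93, 8.13 and 9.46 in siMED12.

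**Figure D3:**
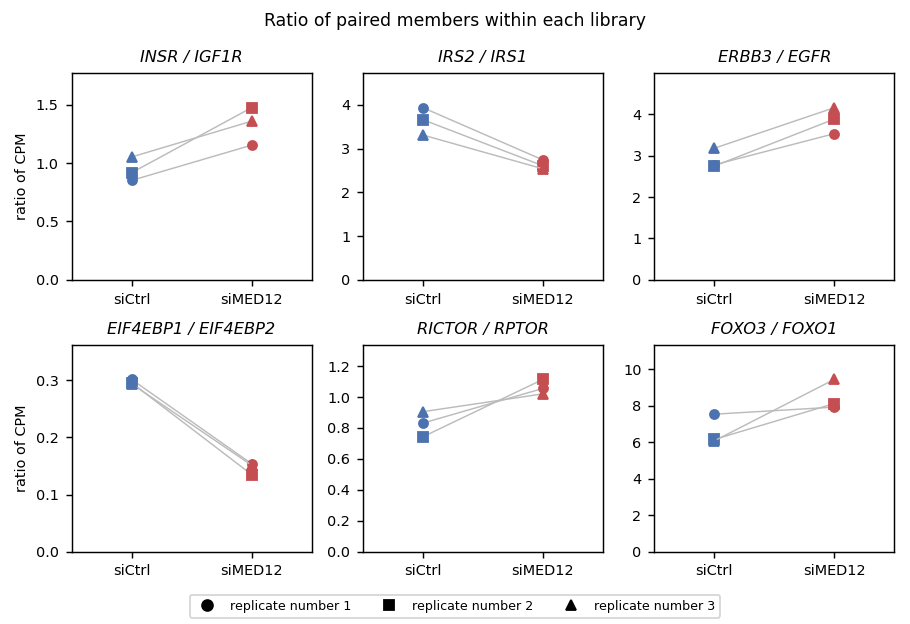
Ratios of CPM of 2 members within each library (vertical axes from 0), siCtrl in blue and siMED12 in red, with marker shapes for the replicate number and lines joining libraries of the same number. None of the 6 ratios shown overlaps between the groups. The ratios of PIK3R1 and PIK3R3 to PIK3CA, which overlapped, and of ERBB2 to EGFR, which did not, are not shown. The ratios were chosen after the values were seen and were not tested.

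Of the 19 members called with the block, 12 were called in the same direction in each of the 6 other fits with a block. Those that rose were ERBB2, ERBB3, PIK3R1, PIK3R3, PHLPP2, RICTOR, TSC1 and FOXO3, and those that fell were IRS2, MLST8, AKT1S1 and EIF4EBP1. Both lists hold activators and brakes. Exons of 17 members overlap exons of a gene on the opposite strand, by 114 to 3403 bases, and although the libraries were strand-specific, use of strand in counting was not stated. For PIK3CA the overlap with KCNMB3 is 3403 of 17189 bases, and for PDPK1 it is 2586 of 10911 bases.

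Levels were compared between members in siCtrl cells only per length, as CPM per kilobase of exon. The length joins all annotated exons of a gene and can exceed that of the transcripts present, which lowers the value. It was 880 bases for EIF4EBP1, 5737 for AKT1S1 and 10955 for AKT1, and the order below depends on it. By this measure EIF4EBP1 was highest at 67.3 (58.4 to 73.4 over the 3 libraries), above every other member. Before division by length it was at 59.2 CPM, AKT1S1 at 170 CPM and AKT1 at 306 CPM. AKT1S1 at 29.7, IRS2 at 29.01 and AKT1 at 27.98 came next, and the range of IRS2 took in those of the other two. ERBB3 at 20.6 was the highest receptor, followed by ERBB2 at 9.62, EGFR at 5.23, INSR at 4.10 and IGF1R at 3.42, and only INSR and IGF1R had ranges that overlapped. AKT2 at 14.3 lay below AKT1 without overlap, and PIK3CB at 8.80 above PIK3C2B at 2.12 and PIK3CA at 1.46, whose ranges overlapped. The lowest were INPP4B at 0.916, SGK3 at 0.846 and SGK1 at 0.755, which overlapped one another.

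**Figure D4:**
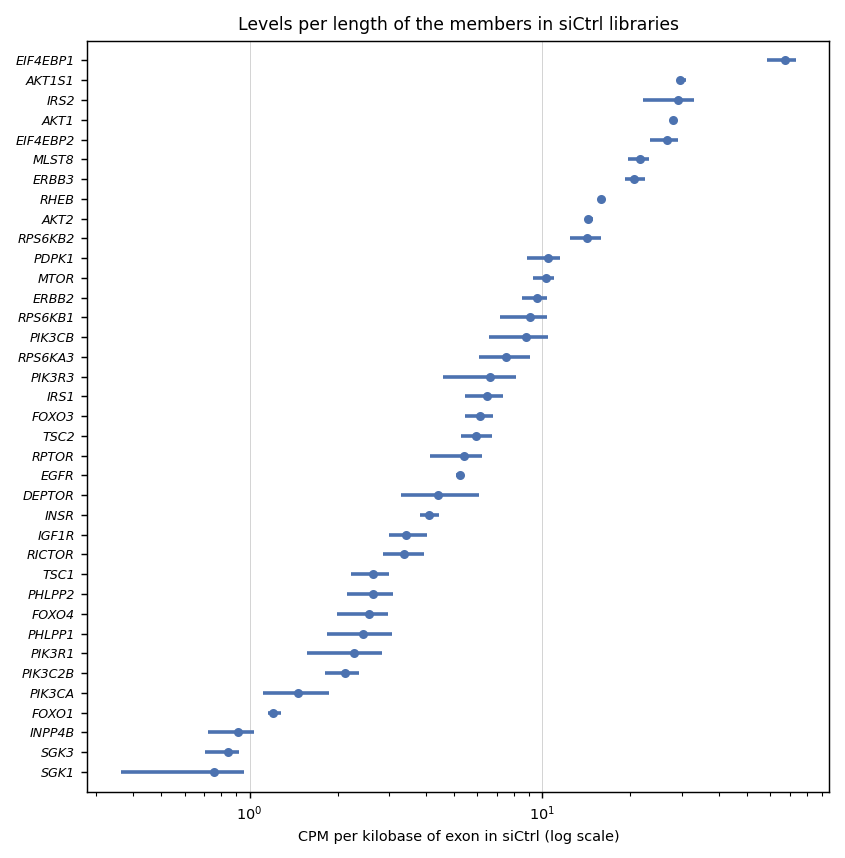
Level per length of each of the 37 members in siCtrl libraries, in CPM per kilobase of exon (horizontal axis, log scale). All annotated exons of a gene were joined for its length, on which the order depends. Points give the mean and bars the range of 3 libraries. EIF4EBP1 at 67.3 is at the top and SGK1 at 0.755 at the bottom.

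The other genes of the pathway were read from 9 lists chosen by function. By treatment alone no gene of any list passed the test, while 0 to 5 genes per list and direction had an unadjusted p under 0.05, where 7.65% of all genes were higher and 7.93% lower at that level. With the block, genes of every list passed, against the backgrounds of 17.1% higher and 16.2% lower. The lists share some genes, and the values below are from the fit with the block.

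Upstream of the receptors, 2 of 14 growth factor ligands rose and 5 fell. HGF, the ligand of MET, was at 76.3 ± 14.6 CPM in siCtrl and 39.5 ± 8.67 CPM in siMED12 and fell with a log2 fold change of -0.95 ± 0.07 SE (adjusted p = 2.9e-13). IGF1 fell from 7.26 ± 0.951 CPM to 4.68 ± 1.07 CPM and VEGFA, the endothelial growth factor, from 109 ± 20.3 CPM to 78.9 ± 18.3 CPM. Of the 8115 exon bases of IGF1, 6693 overlap exons of HELLPAR on the opposite strand. With use of strand in counting not stated, the level of IGF1 is uncertain. PDGFC, at 5.38 ± 0.755 CPM in siCtrl and 8.80 ± 1.14 CPM in siMED12, and PDGFB, at 16.6 ± 0.970 CPM in siCtrl and 21.3 ± 1.79 CPM in siMED12, rose, the latter call being lost without replicate 2 (adjusted p = 0.0691). Of 4 IGF-binding proteins, which hold IGFs outside the cell, 3 fell and none rose. IGFBP3 was at 277 ± 52.8 CPM in siCtrl and 168 ± 58.4 CPM in siMED12 and fell with a log2 fold change of -0.75 ± 0.05 SE (adjusted p = 4.5e-15).

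Of 12 other growth factor receptors 3 rose and 2 fell. DDR1, a collagen receptor, rose from 311 ± 29.3 CPM to 395 ± 41.99 CPM, and the fibroblast growth factor receptor FGFR3 from 152 ± 47.3 CPM to 179 ± 48.8 CPM. FGFR4, of the same family, fell from 15.9 ± 1.98 CPM to 8.84 ± 2.47 CPM, a log2 fold change of -0.86 (adjusted p = 5.0e-06). IGF2R, which clears IGF2, and MET had called differences of 0.13 and -0.20 on the log2 scale that were lost in 4 and 3 of 6 alternatives. Of 20 receptor adaptors 7 rose and 3 fell. SOS2, an exchange factor that activates RAS, was at 34.6 ± 4.43 CPM in siCtrl and 54.8 ± 6.68 CPM in siMED12 and rose with a log2 fold change of 0.66 ± 0.07 SE (adjusted p = 5.2e-10). GAB1, a docking protein that recruits PI3K, rose from 9.71 ± 0.907 CPM to 15.1 ± 2.13 CPM, and GRB14, an inhibitor of the insulin receptor, from 4.41 ± 0.677 CPM to 6.84 ± 1.05 CPM. GRB10, the homologue of GRB14, fell from 19.1 ± 1.73 CPM to 14.8 ± 0.553 CPM, and the adaptor SH2B2 from 11.8 ± 1.77 CPM to 9.28 ± 0.641 CPM, a call lost in 4 of 6 alternatives. The calls of GRB14 and GRB10 were lost without replicate 1, at adjusted p-values of 0.0647 and 0.0505.

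Of 16 other PI3K subunits and lipid phosphatases 3 rose and 1 fell. INPPL1, the phosphatase SHIP2, rose from 202 ± 15.3 CPM to 233 ± 14.98 CPM, and PIK3IP1, an inhibitor of PI3K, from 10.1 ± 3.27 CPM to 12.7 ± 2.87 CPM, lost without replicate 1 or 3. INPP5J, another inositol phosphatase, fell from 129.8 ± 3.33 CPM to 116 ± 3.53 CPM, lost without replicate 1 (adjusted p = 0.0953). Of 18 other AKT and mTORC2 regulators 3 rose and 3 fell. SGK2, a relative of AKT, rose from 15.7 ± 2.44 CPM to 24.3 ± 4.21 CPM, a log2 fold change of 0.62 (adjusted p = 1.8e-06). PPP2CB, a catalytic subunit of phosphatase 2A, rose from 97.8 ± 16.8 CPM to 116 ± 11.5 CPM, and the kinase PKN2 from 93.6 ± 6.99 CPM to 105 ± 11.3 CPM, lost with the correction for base composition and length and without replicate 1 or 3. TBC1D4, an AKT substrate in glucose uptake, fell from 57.2 ± 5.85 CPM to 45.6 ± 3.50 CPM. The pseudokinases TRIB1, from 58.6 ± 23.9 CPM to 49.04 ± 14.3 CPM, and TRIB3, from 112 ± 17.3 CPM to 96.5 ± 15.8 CPM, also fell, the former call being lost without replicate 1 (adjusted p = 0.252).

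Of 42 genes of amino acid and energy sensing 9 rose and 8 fell. SESN3, a sestrin that restrains mTOR complex 1 and is also a FOXO target, had the largest increase of any list. It was read at 46.05, 36.2 and 29.2 CPM in the siCtrl libraries and at 91.5, 97.0 and 60.8 CPM in the siMED12 libraries. The groups did not overlap and SESN3 rose with a log2 fold change of 1.16 ± 0.07 SE (adjusted p = 1.2e-16), with an adjusted p of 0.0616 by treatment alone. RRAGB, a RAG GTPase that brings mTOR complex 1 to lysosomes, rose from 7.73 ± 2.02 CPM to 12.03 ± 2.77 CPM, and FNIP2, a folliculin partner, from 22.6 ± 3.81 CPM to 30.4 ± 5.89 CPM. DDIT4L, from 29.4 ± 14.04 CPM to 16.1 ± 5.89 CPM, and DDIT4, from 23.9 ± 1.56 CPM to 19.4 ± 1.44 CPM, which are stress-induced inhibitors of mTOR complex 1, fell, as did SEH1L, a nucleoporin of the GATOR2 complex, from 91.9 ± 6.58 CPM to 69.9 ± 8.20 CPM. The call of DDIT4 was lost without replicate 1 (adjusted p = 0.0832).

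Of 21 genes listed as mTORC1 outputs 3 rose and 6 fell. The list also holds RPS6KA1, RPS6KA2, RPS6KA4 and RPS6KA5, of the same gene family as RPS6KA3 above, so it is not confined to outputs of mTOR complex 1. RPS6KA4 and RPS6KA5 were among those that fell. ULK1, the autophagy kinase that the complex inhibits, rose from 131 ± 12.4 CPM to 169.5 ± 7.43 CPM, a log2 fold change of 0.38 (adjusted p = 1.8e-08). EEF2K, which slows translation elongation, rose from 108 ± 12.3 CPM to 133 ± 11.99 CPM, and PDCD4, an inhibitor of the initiation helicase eIF4A, from 56.3 ± 1.69 CPM to 64.7 ± 1.91 CPM, lost in 3 of 6 alternatives. LARP1, which binds mRNAs of ribosomal proteins, fell from 491 ± 63.6 CPM to 389 ± 30.1 CPM. SREBF1, a transcription factor of lipid synthesis, fell from 441 ± 19.3 CPM to 363 ± 31.8 CPM, and the kinase RPS6KA5 from 14.1 ± 1.83 CPM to 10.95 ± 1.10 CPM, lost without replicate 3 (adjusted p = 0.138). Of 28 FOXO target genes 6 rose and 10 fell. Beside SESN3, the cyclin CCNG2 rose from 32.03 ± 10.4 CPM to 51.4 ± 14.8 CPM and the catalase gene CAT from 106 ± 15.5 CPM to 141 ± 24.3 CPM. The repressor BCL6 fell from 58.04 ± 6.48 CPM to 35.6 ± 6.21 CPM, the transcription factor KLF15 from 30.95 ± 2.30 CPM to 19.96 ± 2.11 CPM and the cell death gene BBC3 from 48.9 ± 11.2 CPM to 33.2 ± 11.4 CPM.

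**Figure D5:**
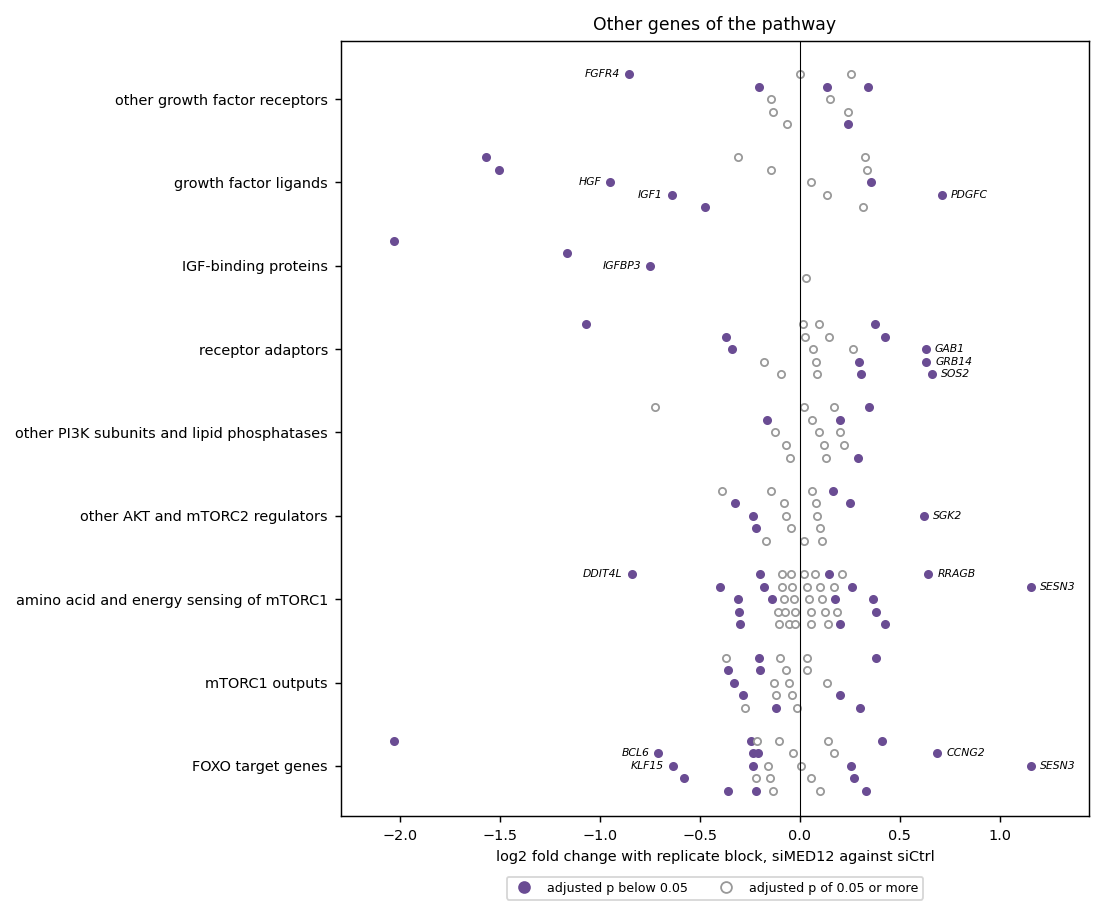
Log2 fold change with the replicate block, siMED12 against siCtrl (horizontal axis), of the genes in 9 lists of other pathway genes (vertical axis). Each point is a gene, filled where the adjusted p was below 0.05, and points are staggered within a list for legibility. SESN3 at 1.16 is the highest point of any list.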

How the data were processed

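RNA-seq of 22Rv1 cells transfected with siCtrl or siMED12 (n = 3 each) was analysed, with groups and replicate numbers from the labels. The authors aligned and counted reads with Rsubread on GRCh38 with a Gencode annotation. The libraries were strand-specific, but use of strand in counting and treatment of multiply mapping reads are not given in the sources used here. The deposited counts are raw, for 62703 genes. The deposited log2 CPM values (17901 genes) could be recomputed from the counts within 4.96e-09, using edgeR's filter on low counts, a prior count of 2 and TMM scaling. Per the study's methods replicates were biological.

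Counts were tested with edgeR 4.0.16 (R 4.3.3, glmQLFit and glmQLFTest, two-sided, Benjamini-Hochberg over all genes, threshold 0.05) by treatment. The alternatives were the replicate number as a block, also with DESeq2 size factors, library size only, a loess correction (span 0.5) for GC content and length (17881 genes) or without 1 replicate number. Without the block, scaling by DESeq2 size factors or by library size alone, a Wald test in DESeq2 1.42.0, limma 3.58.1 on the log2 CPM, other filters and leaving out each library were tried. The numbers were taken to pair libraries, because deviations from group means correlated at 0.532, 0.373 and 0.643 within numbers and at -0.460 to -0.0233 across numbers. Deviations cancel out within a group, so the values across numbers are not separate evidence of pairing. The labels give the numbers and do not state that libraries were paired. Replicates of a group were not duplicates (chi-square per degree of freedom 11.4 to 46.1).

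The members and lists were chosen with earlier results of these data known. Values in every library were given for members called in either fit with an absolute log2 fold change of at least 0.2. From each list up to 3 genes per direction with the largest log2 fold changes by treatment alone were named, among those called with the block at a mean of at least 5 CPM, and 1 gene that this rule names is not reported here. Means are ± SD. Lengths and overlaps of genes are from Gencode 44 (99.9% of genes matched) and promoters from RefSeq.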

Additional observations from a re-analysis of the deposited data

How the results depend on the processing

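The 37 members gave 0 higher and 1 lower by treatment alone. Among the alternatives without a block, scaling by library size only gave 0 lower, a Wald test in DESeq2 2 higher and 1 lower, keeping every gene with 1 count 2 higher and 1 lower, and leaving out each library gave 0 higher and 0 to 1 lower. All genes called higher and lower by treatment alone were 27 and 74, against 319 and 482 by the Wald test, 186 and 290 when every gene with 1 count was kept and 31 and 49 with library size only. Requiring a mean of 1 CPM gave 34 and 118. With the replicate block, members called higher and lower were 13 and 6. With the block these were 12 and 6 with DESeq2 size factors, 18 and 6 with library size only, 10 and 7 with GC content and length correction, and 10 to 11 and 5 to 6 without a replicate number. All genes called higher and lower with the block were 3058 and 2908. They were 2960 and 3069 with DESeq2 size factors, 3807 and 2413 with library size only and 2517 and 3375 with GC content and length correction. Without a replicate number they were 2070 to 2375 and 2578 to 2654. Over all fits that left out replicates the member counts were 0 to 11 higher and 0 to 6 lower. Library size only moved the median of all genes to 0.06.

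The median log2 fold change of the members was 0.150 (block) and 0.154 (no block) with library size only, 0.020 with the block and GC content and length correction, 0.093 when a mean of 1 CPM was required, 0.021 to 0.119 without replicates and at lowest 0.071 among these with the block. The median of the activators was 0.020 with the block and GC content and length correction and 0.014 to 0.154 without replicates, and that of the brakes -0.0025 to 0.099. MED12 kept its direction, at -1.91 to -1.41 (-1.90 to -1.45 without a block), and its adjusted p reached 0.186 without siCtrl replicate 2.

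Directions turned only in genes without a call by treatment alone, but of the single genes only EIF4EBP1 had such a call. PIK3CB, TRIB1 and MET, which were called with the block, turned in fits without it that left out 1 library. With library size only, with and without the block, the genes that turned were INPP4B (0.0053 and 0.0091), RPS6KB1 (0.014 and 0.012), FOXO1 (0.00628 and 0.012) and FOXO4 (0.027 and 0.034). With the block and GC content and length correction they were MTOR (-0.025), EGFR (-0.053) and FOXO4 (0.0049). Leaving out replicates turned the following, with these ranges of log2 fold change: INPP4B -0.213 to 0.119, PIK3CA -0.030 to 0.330, PIK3CB -0.031 to 0.285, AKT1 -0.058 to 0.062 (turned to -0.045 with the block), SGK1 -0.203 to 0.504, PHLPP1 -0.246 to 0.110, MTOR -0.038 to 0.102, RPTOR -0.234 to 0.033, TSC2 -0.0090 to 0.190, RPS6KB1 -0.178 to 0.086, RPS6KA3 -0.012 to 0.292, FOXO1 -0.174 to 0.034 (turned to 0.0067 and 0.015 with the block, at lowest -0.148 without it), FOXO4 -0.177 to 0.177, IRS1 -0.0023 to 0.233, EGFR -0.016 to 0.073 (at lowest -0.0096 without the block), TRIB1 -0.513 to 0.099 and MET -0.596 to 0.105. The cause was not tested. The 1520 values of 80 single genes were compared with the fit by treatment alone. Of these values, 1048 kept direction and side of the threshold, 416 gained a call, 6 lost one and 50 turned. Of the 80 genes only EIF4EBP1 had a call to lose. The list genes were named for a call with the block, so these counts do not measure how stable the calls are. Among the members SGK3, FOXO1, SGK1 and FOXO4, all at low counts, had the largest standard errors with the block.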
